A study of Homo sapiens with 5 samples.

Results

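The 10 genes described here belong to the multiciliated cell programme: CCNO, MCIDAS, GMNC, FOXJ1, TP73, MYB, CDC20B, DEUP1, CFAP126 and E2F7. They are 10 of the 33538 genes listed for D22 to D26 and of the 36601 listed for D0 to D10, and each symbol had 1 row. The rule that goes with them compares single cells holding 2 or more unique molecular identifiers (UMIs, each standing for 1 captured transcript) of CCNO with cells holding none at D22, D24 and D26. The genes were chosen with that contrast in view, so their values in it are a description and were given no test. It concerns 70 of 9523 cells at D22, 10 of 9107 at D24 and 0 of 11056 at D26.

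The libraries came from wild type WA09 (H9) cells, an established human embryonic stem cell line, differentiated towards neurons that make gonadotropin-releasing hormone. D0 was undifferentiated. D5 dSMADi and D10 dSMADi received dual SMAD inhibition alone, and D5 XAV939 and D10 XAV939 received it together with 10 µM XAV939, an inhibitor of Wnt signalling. D22, D24 and D26 were made without XAV939, with dual SMAD inhibition, then FGF8, then DAPT, which blocks Notch signalling by inhibiting gamma-secretase. The 5 early conditions were tagged with oligonucleotides and sequenced as 1 pool. The top tag of every barcode matched its file, which cannot show that a tag stood for the stated condition. Each of the 8 conditions had 1 sample of cells, all from a single line. These samples are called libraries here, although the 5 early ones were mixed before library construction. They were compared without a test, and intervals cover counting error only. Total counts ran from 58073098 UMIs (D10 XAV939) to 130440502 (D22), and the median per cell fell in the range 24290.5 to 69455 at D0 to D10 and 7180 to 12179 at D22 to D26. The early and late files list different numbers of genes and were prepared separately, and these differences cannot be told apart from time. At most 37 barcodes were shared by any pair of the D22, D24 and D26 libraries.

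Multiciliated cells carry many motile cilia and move fluid over the ventricles of the brain, the airway and the reproductive tract. Their precursors stop dividing and then build many centrioles at once, each of which becomes the base of a cilium. GMNC and MCIDAS, relatives of the replication inhibitor geminin, act with E2F factors to switch the programme on. Notch signalling holds it back in many tissues. The transcription factors TP73, MYB and FOXJ1 follow, CCNO, CDC20B and DEUP1 take part in centriole production, and CFAP126 (Flattop) is a protein of the ciliary base and axoneme. E2F7 represses cell cycle genes and is also used by dividing cells.

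CCNO, MCIDAS and CDC20B are neighbours on the minus strand of chromosome 5 in GRCh38 (GENCODE 44 models). CCNO lies at chr5:55231152-55233608, MCIDAS at chr5:55219564-55227315, which leaves 3837 bases between them, and CDC20B at chr5:55112971-55173177, 57975 bases from CCNO. TP73 is on the plus strand at chr1:3652516-3736201. These 4 genes are shown by the 250 bases in front of their start because they are the members whose windows held an E2F motif. Each line runs 5′ to 3′ on the gene's strand and ends at the base before the start. Capitals mark an E2F motif (TTTCCCGC, TTTCGCGC, TTTGCCGC or TTTGGCGC) or the RFX half-site GTTGCC, on either strand, from RefSeq promoter tables of GRCh38.p14. The windows are chr5:55233609-55233858 (minus), chr5:55227316-55227565 (minus), chr5:55173178-55173427 (minus) and chr1:3652266-3652515 (plus), and none overlaps an annotated exon.
CCNO: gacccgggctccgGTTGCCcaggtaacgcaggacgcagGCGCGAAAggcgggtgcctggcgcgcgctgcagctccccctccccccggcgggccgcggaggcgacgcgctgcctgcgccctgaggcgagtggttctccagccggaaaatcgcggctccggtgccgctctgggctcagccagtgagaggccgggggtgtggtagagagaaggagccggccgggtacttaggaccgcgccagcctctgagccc
MCIDAS: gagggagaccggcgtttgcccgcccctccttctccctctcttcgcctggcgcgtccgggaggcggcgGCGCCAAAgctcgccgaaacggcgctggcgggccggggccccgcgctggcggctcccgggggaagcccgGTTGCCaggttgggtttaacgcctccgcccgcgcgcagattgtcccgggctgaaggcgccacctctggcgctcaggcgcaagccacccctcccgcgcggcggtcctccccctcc
CDC20B: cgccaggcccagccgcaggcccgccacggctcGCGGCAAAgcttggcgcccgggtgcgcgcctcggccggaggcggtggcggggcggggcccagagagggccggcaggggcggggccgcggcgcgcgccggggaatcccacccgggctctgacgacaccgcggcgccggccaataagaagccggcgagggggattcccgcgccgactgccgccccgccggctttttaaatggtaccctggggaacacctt
TP73: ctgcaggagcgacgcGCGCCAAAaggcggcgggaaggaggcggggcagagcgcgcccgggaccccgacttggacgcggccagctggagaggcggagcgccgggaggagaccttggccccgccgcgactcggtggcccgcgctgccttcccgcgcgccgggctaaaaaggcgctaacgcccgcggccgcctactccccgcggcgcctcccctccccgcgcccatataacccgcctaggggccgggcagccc

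In each of the 4 windows the E2F letters are read on the opposite strand, and their ends lie 212 and 205 bases before the start in CCNO, 183 and 176 in MCIDAS, 218 and 211 in CDC20B, and 235 and 228 in TP73. Promoters were found for 9 of the 10 genes, without FOXJ1. The GMNC window, chr3:190862695-190862944, starts from a site 29735 bases from the GENCODE 5′ end and lies inside the gene model. That of DEUP1 starts 771 bases from the gene's GENCODE 5′ end and overlaps 2 annotated exons, and that of CFAP126 overlaps 1. The E2F motif stood in 4 of these 9 (4 of 7 without GMNC and DEUP1) and in 2.79% of 35116 promoters of the same length. GTTGCC stood in 5 of 9 (CCNO, MCIDAS, DEUP1, CFAP126 and E2F7) and in 10.2% of all promoters. The forkhead motif TGTTTAC stood in MYB and CFAP126 and in 2.98% of all promoters. The MYB motifs TAACGG and TAACTG were in none of the 9 and in 9.42% of all. Which windows to print was decided after the search, and the matches describe letters, not binding.

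The other members lie alone. GMNC is at chr3:190852737-190892429 (minus), FOXJ1 at chr17:76136333-76141245 (minus), MYB at chr6:135181308-135219173 (plus), DEUP1 at chr11:93329971-93438487 (plus), CFAP126 at chr1:161364733-161367876 (minus) and E2F7 at chr12:77021248-77065569 (minus). Annotated genes on the opposite strand overlap FOXJ1 (RNF157-AS1), TP73 (WRAP73 and 3 antisense RNAs), MYB (MYB-AS1), CFAP126 (ENSG00000289106) and CDC20B (GPX8). CDC20B also holds the microRNA genes MIR449A, MIR449B and MIR449C on its own strand, which this assay did not measure.

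Over whole libraries, CCNO, GMNC and CDC20B were at their highest on D22 and close to absent at D0 to D10. CCNO, an atypical cyclin needed for centriole production, stood at 0.0659 counts per 1000000 UMIs (CPM) at D0, 0.364 at D5 dSMADi, 0.208 at D5 XAV939, 0.114 at D10 dSMADi and 0.276 at D10 XAV939. It then stood at 10.3 CPM at D22 (95% Poisson interval 9.74 to 10.8), 2.05 at D24 (1.73 to 2.42) and 0.845 at D26 (0.674 to 1.05). The order D22, D24, D26 was separated by the intervals, whereas those of D5 dSMADi, D5 XAV939 and D10 XAV939 overlapped. D22 exceeded D24 by 5.01 times (interval of the ratio 4.21 to 5.99) and D26 by 12.2 times (9.76 to 15.4).

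GMNC, the first acting of the geminin relatives, had 2 UMIs at D0, none at D5 or D10 in either arm, 224 at D22, and 1 each at D24 and D26. The D22 level was 45.1 times what 3 counts, the limit of a count of 0, would be at D10 dSMADi. The interval of the ratio of 224 against 0 UMIs starts at 36.4. MCIDAS had 12 UMIs in all D22 cells, 2 at D24, 0 at D26 and at most 2 in an early library. The D22 level was 3.05 times what 3 counts would be at D26, and the interval of that ratio, 12 against 0 UMIs, starts at 2.12. It was 7.25 times that of D10 dSMADi (1.07 to 310), while the ratio of D22 to D24 (3.23, 0.718 to 29.7) included equality. CDC20B, a component of the deuterosome on which new centrioles form, was counted 224 times at D22, 12 times at D24 and 2 times at D26, and between 1 and 6 times in the early libraries. Its D22 level exceeded that of D24 by 10.0 times (5.63 to 19.7).

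The axonemal gene and the transcription factors had other courses. CFAP126 went from at most 7 UMIs in any early library to 2.37 CPM at D22, 3.73 at D24 and 0.804 at D26. CFAP126 and DEUP1 were the members whose D24 level exceeded that of D22 with an interval that excluded equality, by 1.58 and 3.62 times. TP73 stood at 0.645 CPM at D0, between 0.0692 and 0.127 at D5 and D10, 1.28 at D22, 0.984 at D24 and 0.271 at D26, and its D22 and D24 levels did not separate (ratio 1.30, 0.978 to 1.75). FOXJ1, the main activator of motile cilium genes, was counted in every library, at 0.882 CPM at D0, 0.627 and 0.311 at D5 dSMADi and D5 XAV939, 1.05 and 0.258 at D10 dSMADi and D10 XAV939, and 2.84, 0.912 and 0.422 at D22, D24 and D26. MYB ranged from 1.13 CPM (D10 dSMADi) to 3.16 (D5 XAV939), and both XAV939 libraries lay above D22 (2.08 CPM).

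E2F7 and DEUP1 did not follow CCNO over the libraries. E2F7 stood at 19.99 CPM at D0, 10.6 at D5 dSMADi, 22.2 at D5 XAV939, 25.4 at D10 dSMADi, 27.4 at D10 XAV939, 14.8 at D22, 2.27 at D24 and 0.141 at D26. It had a UMI in 71.2% of cells at D0, 11.3% at D22 and 0.118% at D26. DEUP1, the deuterosome's scaffold, was lower at D22 (0.299 CPM, 39 UMIs) than at D10 dSMADi (1.29), D24 (1.08) and D26 (0.995).

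**Figure D1:**
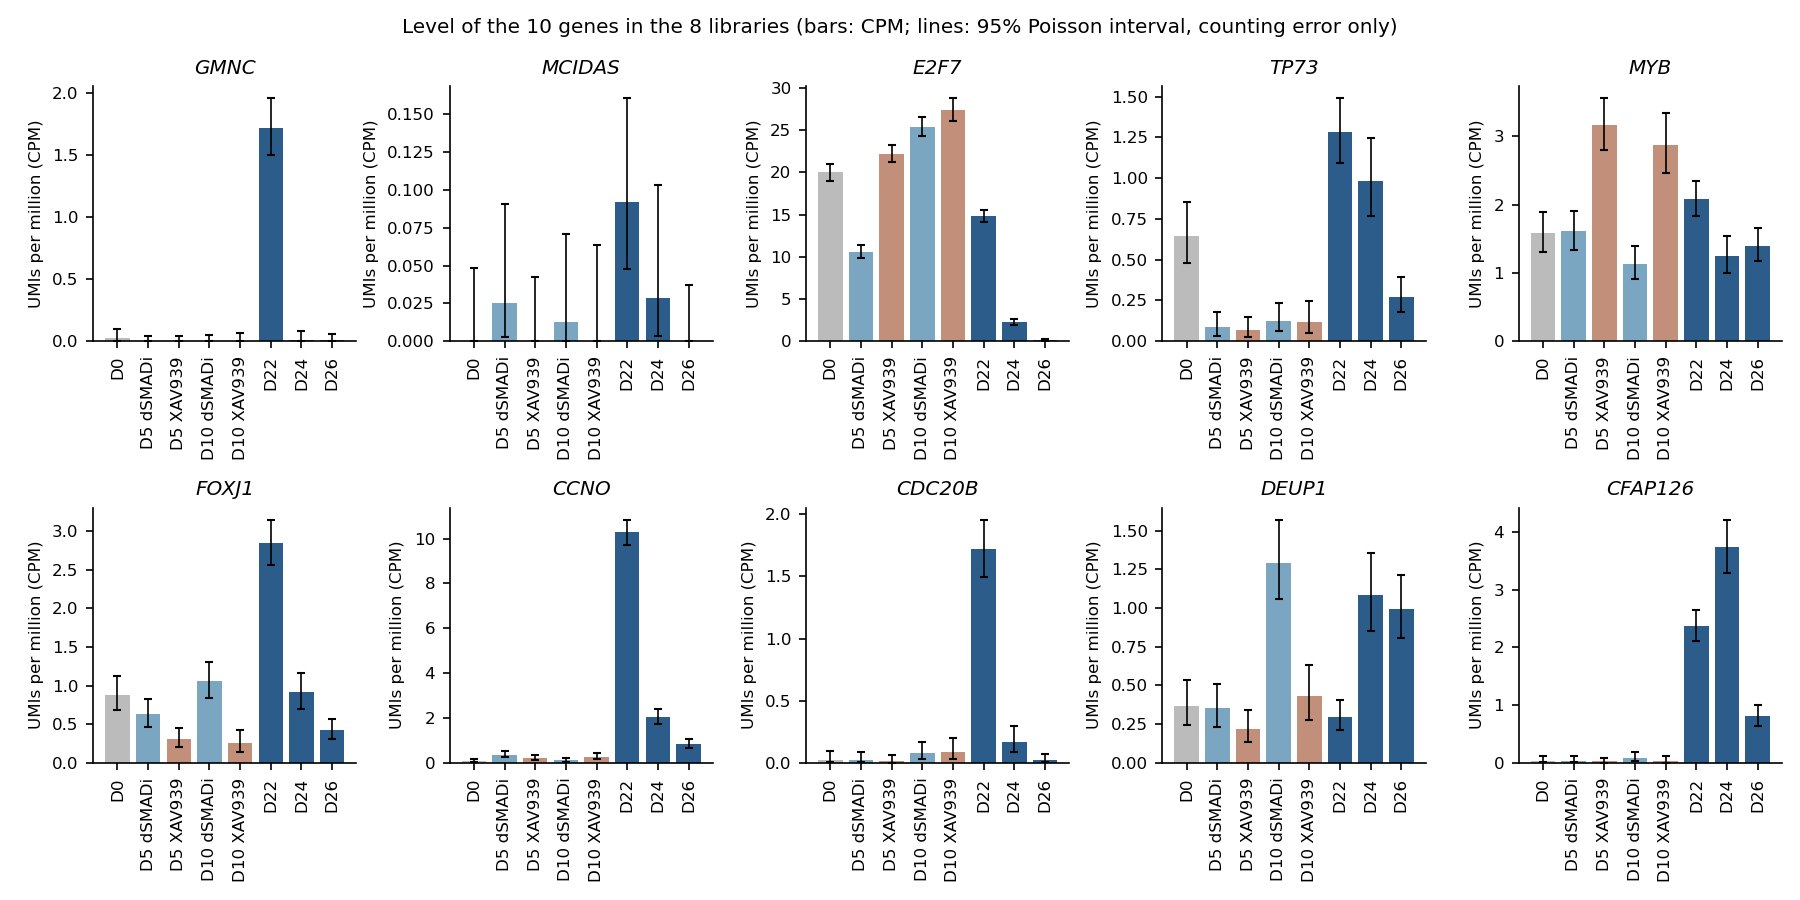
Level of each of the 10 genes (one panel per gene) in the 8 libraries, as CPM on a linear axis from 0, with 95% Poisson intervals as black lines (counting error only). Grey is D0, light blue dual SMAD inhibition alone, brown XAV939 and dark blue D22 to D26. CCNO, GMNC and CDC20B stand out at D22, at 10.3, 1.72 and 1.72 CPM, whereas E2F7 is between 10.6 and 27.4 CPM from D0 to D22.

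MYB, FOXJ1, E2F7 and DEUP1 differed between the arms with and without XAV939. At D5, XAV939 cells held 2.09 times the E2F7 level of dual SMAD inhibition alone (1.93 to 2.27) and 1.97 times the MYB level (1.59 to 2.45), with FOXJ1 at 0.496 times (0.299 to 0.808). At D10 the ratios were 2.55 for MYB (1.96 to 3.33), 0.245 for FOXJ1 (0.131 to 0.428) and 0.332 for DEUP1 (0.206 to 0.519), and 1.08 for E2F7 (1.01 to 1.15). CCNO rested on 16 against 9 UMIs at D10, with a ratio of 2.41 (1.00 to 6.19). Dividing cells, taken as those with 2 or more UMIs of the proliferation marker MKI67, made up 47.2% of D5 XAV939 and 36.4% of D5 dSMADi cells, and 53.7% and 46.5% at D10. Within these dividing cells E2F7 was 28.5 CPM at D5 XAV939 and 17.4 at D5 dSMADi, and MYB was 3.20 and 2.03. With 1 sample of cells on each side, from 1 shared pool, these are differences between single samples.

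Within D22, CCNO transcripts were held by few cells. Of 9523 cells, 9317 had no CCNO UMI, 136 had 1 and 70 had 2 or more, a share of 0.735% (exact 95% interval 0.573 to 0.928). The 70 cells held 1205 of 1341 CCNO UMIs (89.9%) and 0.775% of all UMIs. Among them, 24 cells had 2 or 3 CCNO UMIs, 27 had 4 to 19 and 19 had 20 or more, and the highest had 80. At D24, 10 of 9107 cells (0.110%, 0.0527 to 0.202) held 80 of 144 CCNO UMIs and the highest had 31. At D26 all 84 CCNO UMIs were single ones in 84 cells. With 0 of 11056 cells at 2 or more, a share of up to 0.0271% is allowed at D26, and 1 cell reached 2 when no filter on cells was applied.

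A single CCNO UMI was not specific to these cells. In the 25% of cells with the highest STMN2 level, taken as neurons, a CCNO UMI was found in 0.651% of D26 cells (median 8290 UMIs per cell), close to 0.760% over all D26 cells (8485), and never more than 1. At D24 the shares were 0.439% (6787) and 0.813% (7180). At D22 the STMN2-high cells were not free of CCNO, since 3.02% of them (11538) had a UMI, against 2.16% of all cells, and 1 of them held 56. The 70 cells at D22 had a median of 13174 UMIs, against 12154 in cells with no CCNO UMI, and 3 of the 70 were called doublets, against 401 of the 9317.

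**Figure D2:**
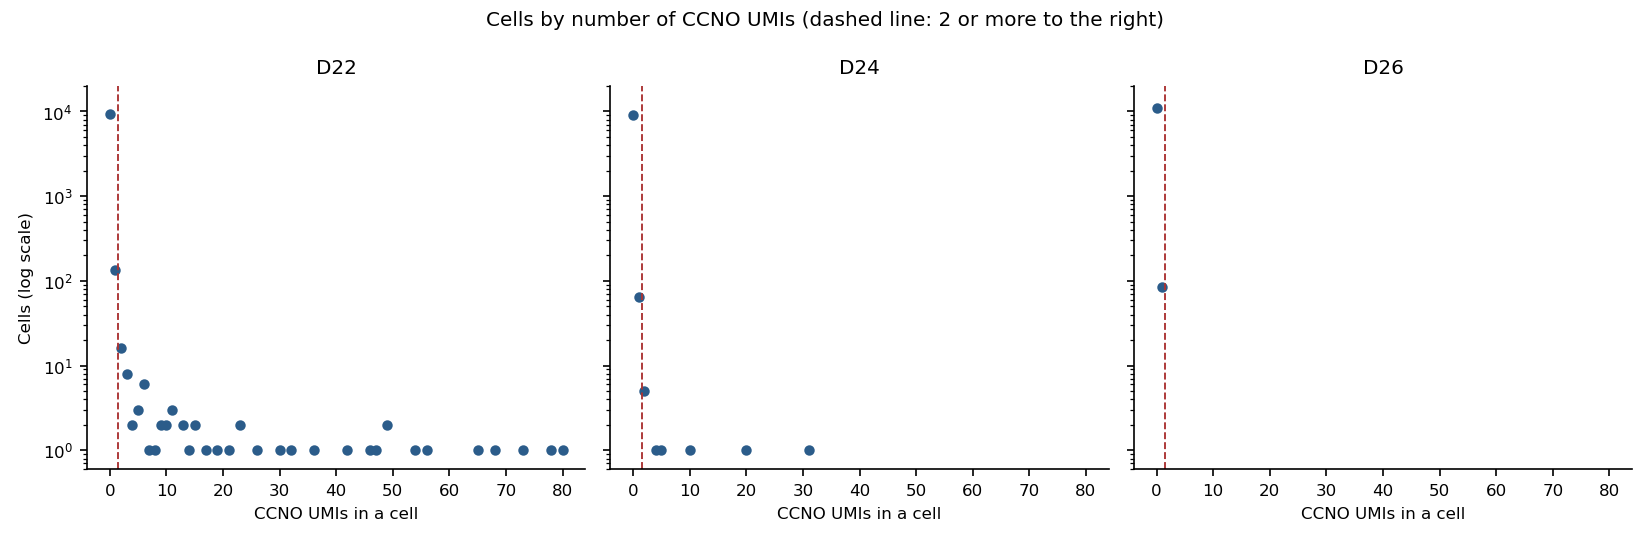
Number of cells (log axis) by the number of CCNO UMIs in the cell (linear axis) at D22, D24 and D26; each point is the count of cells at that number and the dashed line separates 2 or more. The D22 points run out to 80 UMIs and the D24 points to 31, and at D26 no cell is past 1.

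Cells with 2 or more CCNO UMIs at D22 had higher levels than cells with none for all 9 other genes, although DEUP1 rested on 1 UMI. Of the 9 genes, 6 had at least 20 CPM in 1 of the groups of cells and all 6 were at least 2-fold higher. All 6 passed that level only through the CCNO cells, so they had to be higher. Over all 5906 genes past that level the share higher was 3.57%, and nothing is read from the difference, since the members were also chosen on this contrast. Summed, the 9 genes stood at 989 CPM against 19.2, a ratio of 51.6 (47.9 to 55.6).

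Among the regulators, GMNC stood at 50.5 CPM against 1.29 (51 and 165 UMIs, ratio 38.98, interval 27.9 to 53.7) and was found in 25 of the 70 cells. MCIDAS had 11 of its 12 UMIs in 9 of these cells and 1 in the 9317 others, a ratio of 1387 (202 to 59708). These regulators differed in concentration: 22.8% of GMNC UMIs and 91.7% of MCIDAS UMIs lay in the 70 cells. E2F7 stood at 366 CPM against 11.9 (ratio 30.7, 27.3 to 34.4) and was found in 63 of the 70 cells, yet 1522 of its 1935 UMIs were in cells with no CCNO.

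Among the transcription factors, TP73 stood at 84.1 CPM against 0.604 (ratio 139, 101 to 192) in 42 cells, and 50.9% of all its UMIs were in the 70 cells. FOXJ1 stood at 99.9 against 1.98 (ratio 50.3, 39.6 to 63.6) in 37 cells. MYB, the least concentrated of them, stood at 19.8 against 1.94 (ratio 10.2, 6.13 to 16.1) in 15 cells, from 20 UMIs.

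CDC20B, like MCIDAS, was largely restricted to these cells. It had 202 UMIs in 46 of the 70 cells and 10 in 8 of the 9317 without CCNO, which is 199.8 CPM against 0.0785 (ratio 2547, 1357 to 5393). CFAP126 stood at 157 CPM against 1.03 (ratio 153, 121 to 194) in 36 cells, with up to 21 UMIs in a cell. DEUP1, which works with CDC20B in centriole production, had 1 UMI in the 70 cells, where 3 counts would be 2.97 CPM, and 37 in the others.

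For the genes given here, shares of cells with a UMI differed in the same direction when each cell was thinned to 1500 UMIs. DEUP1 and MCIDAS, with 1 and 11 UMIs in the 70 cells, are not given. E2F7 was then found in 44.3% of the 70 cells and 1.28% of cells without CCNO (63 of 70 and 10.7% unthinned), and CDC20B in 21 of 70 and none (65.7% and 0.0859%). CFAP126 was found in 14.3% and 0.140% (51.4% and 1.09%), TP73 in 12.9% and 0.0859% (42 of 70 and 0.644%), and FOXJ1 in 10.0% and 0.301% (52.9% and 2.51%). GMNC, at 4.29% and 0.161% thinned (35.7% and 1.46%), and MYB, at 1.43% and 0.301% (21.4% and 2.48%), rested on 3 and 1 of the 70 cells once thinned.

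**Figure D3:**
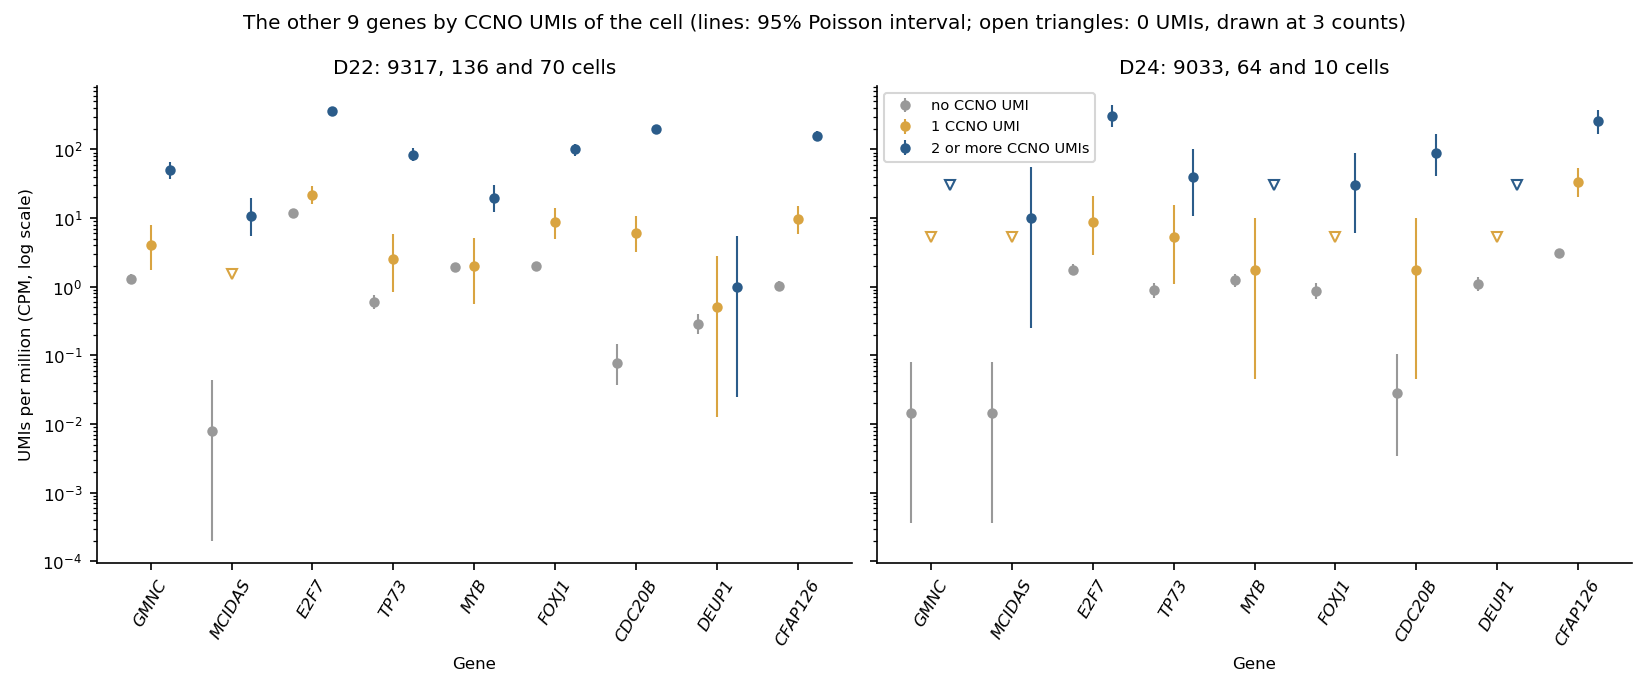
Levels of the other 9 genes (CPM, log axis) in cells with no CCNO UMI (grey), 1 (yellow) and 2 or more (blue) at D22 and D24, with 95% Poisson intervals; open triangles mark 0 UMIs and are drawn at the level of 3 counts. At D22 CDC20B stands at 0.0785, 6.102 and 199.8 CPM, and the DEUP1 intervals overlap across the 3 kinds of cell.

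On either side of the threshold, cells with 1 CCNO UMI and with 2 or 3 at D22 had the following levels. E2F7 stood at 21.9 and 211 CPM, CFAP126 at 9.66 and 74.9, CDC20B at 6.102 and 19.4, FOXJ1 at 8.64 and 13.9, and TP73 at 2.54 and 55.5. Within the 70 cells the members did not scale alike with CCNO. From 2 or 3 to 4 to 19 and to 20 or more CCNO UMIs, CDC20B stood at 19.4, 197 and 450 CPM and FOXJ1 at 13.9, 80.3 and 246. MYB (5.55, 7.77 and 56.8 CPM) and MCIDAS (0, 5.18 and 34.1) were mostly in the top range, where MYB was found in 11 of 19 cells. TP73 (55.5, 95.8 and 106) and GMNC (24.97, 62.2 and 68.1) had overlapping intervals in the upper ranges. E2F7, at 211, 381 and 556 CPM, was high in all of them.

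Joint detection was common in the CCNO-high cells. At least 3 of the other 9 genes had a UMI in 53 of the 70 cells (75.7%, 64.0 to 85.2), in 6 of 136 cells with 1 CCNO UMI (4.41%) and in 24 of 9317 without (0.258%). After thinning to 1500 UMIs the shares were 11.4%, 0 of 136 and 0 of 9317. All 31 cells with 10 or more CCNO UMIs had at least 3 of the others, and none of the 31 was called a doublet. The cell with most CCNO, 80 UMIs among 15947, held 12 of E2F7, 10 of CDC20B, 4 each of FOXJ1, TP73 and CFAP126, 2 of MYB, and 1 each of GMNC and MCIDAS. The next, with 78 CCNO UMIs among 19240, held 21 of E2F7, 15 of CDC20B, 7 of FOXJ1 and 5 of GMNC. In both, 8 of the 9 other genes were present and DEUP1 was the one without a UMI.

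**Figure D4:**
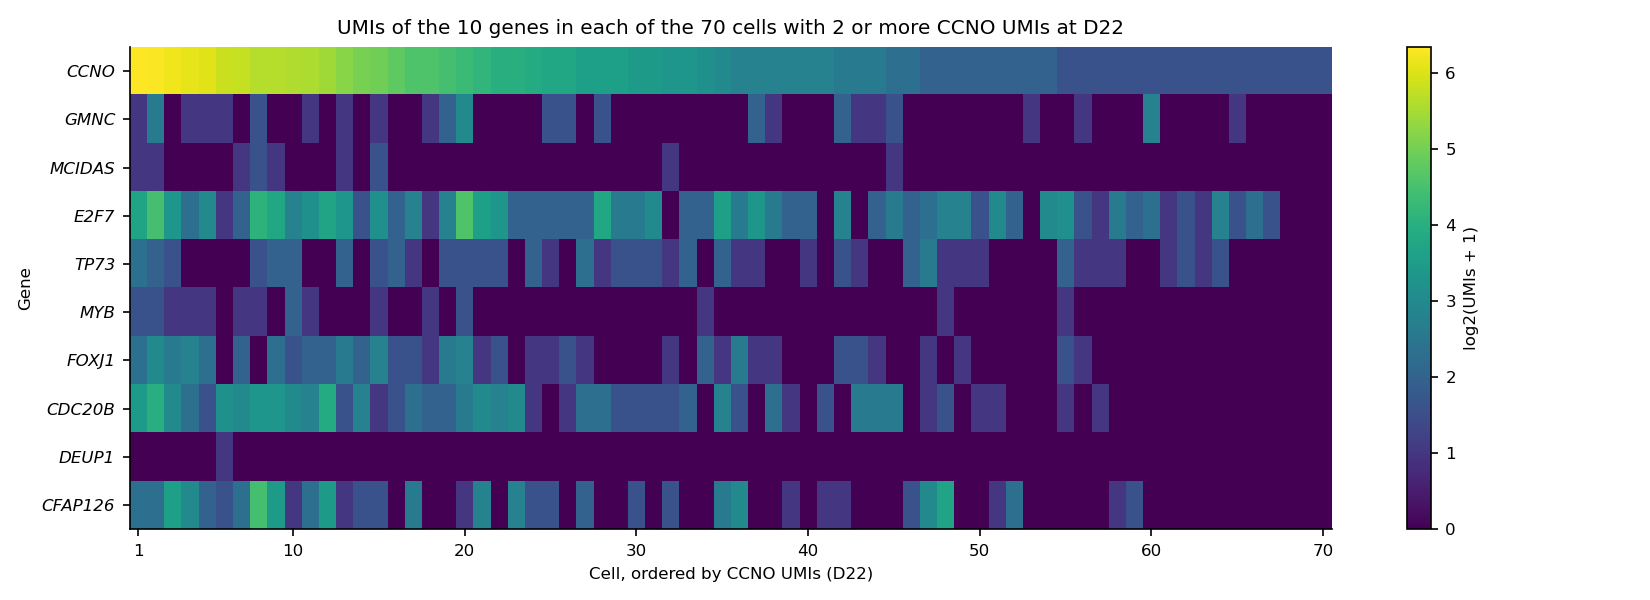
UMIs of the 10 genes (rows) in each of the 70 cells with 2 or more CCNO UMIs at D22 (columns, from the highest CCNO count on the left), coloured by log2(UMIs + 1). E2F7 runs across nearly all columns (63 of 70 cells), CDC20B, FOXJ1 and CFAP126 thin out to the right, and the DEUP1 row holds 1 UMI.

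At D24 the 10 cells held part of the same set. CFAP126 had 26 UMIs in them (ratio to cells without CCNO 82.8, 52.9 to 125), E2F7 31 (174, 113 to 260) and CDC20B 9, against 2 in the 9033 other cells (3109, 643 to 29566). TP73 had 4 UMIs (44.6), FOXJ1 3 (34.0, 6.82 to 104) and MCIDAS 1, while GMNC, MYB and DEUP1 had 0. Of the 9 genes, 5 passed the level minimum, only through the 10 cells, so they had to be higher. Over all 5762 genes past that level the share higher was 12.1%, and nothing is read from the difference. The 9 summed to 736 CPM against 9.07 (ratio 81.1, 62.9 to 103), and 4 of 10 cells had at least 3 of them, against 0 of 64 with 1 CCNO UMI and 5 of 9033 with none. The cell with 31 CCNO UMIs held 12 of E2F7 and 6 of CFAP126. In these 10 cells 3 counts amount to 29.8 CPM, so lower levels of GMNC, MYB and DEUP1 were not detectable.

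E2F7 and MYB were also genes of dividing cells. Dividing cells at D22 (2047 cells, 21.5%, with 28.7% of all UMIs) held 53.2% of E2F7 and 53.5% of MYB UMIs. They held 2.16% of CCNO, 2.23% of CDC20B and 6.47% of CFAP126 UMIs, and 23.7% of GMNC UMIs. E2F7 stood at 27.5 CPM in them and at 10.3 in cells with no MKI67 UMI. Only 3 of the 70 CCNO cells were dividing by this measure, and 1 of them was called a doublet (score 0.393). These 3 held all 45 MKI67 UMIs of the 70 cells, 6 of the CCNO UMIs and 5 of the 370 E2F7 UMIs.

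Of the 9317 cells without a CCNO UMI at D22, 213 (2.29%) had 2 or more of the other genes, and several of these genes were with E2F7 more often than its overall share. CDC20B was with E2F7 in 6 of its 8 cells, GMNC with E2F7 in 45 of its 136, TP73 with E2F7 in 20 of its 60 and MYB with E2F7 in 80 of its 231, where E2F7 was found in 10.7% of all such cells. FOXJ1 was with E2F7 in 40 of its 234 cells, with CFAP126 in 9 and with GMNC in 9. Depth per cell and division were not held equal in these counts. Dividing cells, with 28.7% of all D22 UMIs, held 53.2% of E2F7 and 53.5% of MYB UMIs. The 136 GMNC cells held E2F7 at 41.5 CPM, against 11.9 in all cells without CCNO. They held the 12 cell division genes at 3290 against 2140 CPM and the 36 motile axoneme genes at 248 against 235. At D24 the pair most often together was TP73 with CFAP126, in 16 of 50 TP73 cells and of 175 CFAP126 cells. At D26 no pair was together in more than 4 cells.

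Cells without CCNO but with 2 or more of the other genes differed between the days in what else they held. At D22 these 213 cells had axoneme genes at 230 CPM, against 240 in the 7754 cells with no member, and division genes at 4842 against 1536. At D24 the 40 such cells had axoneme genes at 546 CPM against 266 in 8530 cells with none (ratio 2.05, 1.79 to 2.34), PIFO at 43.9 against 4.72 and CDKN1A, the inhibitor of cyclin-dependent kinases, at 115 against 3.82. Their division genes stood at 780 against 90.3 CPM. At D26 the 10 such cells had axoneme genes at 209 CPM against 208 in 10605 cells with none, and division genes at 542 against 43.3. The division genes rested on 70 UMIs there, and the larger counts came mostly from a single cell per gene. That cell held 16 of 17 CENPF UMIs, 9 of 11 of TOP2A, all 10 of CCNB2 and all 8 of MKI67. Whether it was the same cell for each gene was not tested. E2F7 and MYB count among the genes that select these cells, and dividing cells held 53.2% and 53.5% of their UMIs at D22. The cells with no member hold neither gene. The choice of cells thus favours higher division levels at D22, and nothing is read from them. Whether the levels at D24 and D26 relate to dividing cells was not tested.

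DEUP1 was found outside the CCNO cells at low shares. It had 76 UMIs in 76 cells at D24 and 99 in 93 at D26. It was in 1.01% of STMN2-high neurons and 0.835% of all cells at D24, and in 0.941% and 0.841% at D26. MYB was in 0.941% of STMN2-high neurons and 1.22% of all cells at D26.

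Other genes of motile cilia mostly stood at higher levels in the CCNO cells. Of 36 motile axoneme genes, 27 had at least 1 CPM in D22 cells without CCNO, a minimum that does not depend on the CCNO cells and was added after seeing the data. Of these, 24 had a higher level in the CCNO cells, where 46% of 13181 genes past that minimum did. The minimum of 20 CPM in either group was passed by 12 genes, 10 of them only through the CCNO cells, which had to be higher, so the 11 called 2-fold higher are no support for a direction (3.57% of all genes were called higher). The whole list summed to 721 against 235 CPM (ratio 3.07, 2.85 to 3.30). Its median log2 ratio of (CPM + 10), over all 36 genes, was 0.67. Genes past 20 CPM in either group had a median near 0, but most of the 36 were not past it, so the medians cover unlike sets. PIFO stood at 61.3 against 4.35 CPM, FAM183A at 64.3 against 6.48, and CFAP52, a protein of axonemal microtubules, at 26.7 against 1.96. RSPH4A and RSPH1, of the radial spoke, stood at 67.3 against 17.4 and 30.7 against 7.66. TEKT1, a tektin, stood at 13.9 against 0.298 (ratio 46.5, 23.3 to 87.7). Of the outer dynein arm genes, DNAH9 stood at 44.5 against 14.9 CPM, DNAH11 had 5 UMIs, DNAH5 had 2, DNAI1 had 1 and DNAI2 had 0. TPPP3 stood at 89.0 against 42.4 CPM, TEKT2 at 23.7 against 5.76 and HYDIN at 22.8 against 5.87, and CAPS and CCDC39 had 1 UMI each. DNAH7, one of 10 genes of the list with 0 UMIs at D24, had 17 UMIs at D22 (16.8 against 3.63 CPM).

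At D24, 24 of 27 axoneme genes at 1 CPM or more in cells without CCNO had a higher level in the 10 cells, where 35.3% of 12932 genes did. Of 17 past 20 CPM in either group, 13 passed only through the 10 cells and had to be higher. The 15 called higher, beside 12.1% of all genes, are therefore no support for a direction. Of the 4 at 20 CPM or more in cells without CCNO, 2 were higher, beside 4.33% of all genes past that minimum. The whole list summed to 1272 against 270 CPM (ratio 4.72). FAM183A stood at 159 against 9.30 CPM. CFAP45, with the largest ratio of the list, had 1 UMI. Among 15 centriole genes, 7 had at least 20 CPM in D22 cells without CCNO. Of these 0 were higher and 0 lower, beside 1.19% and 3.14% of all genes past that minimum. Of 10 past 20 CPM in either group, 2 were higher and none lower, where 3.57% of all genes were higher and 2.9% lower. Both that were higher had under 20 CPM in cells without CCNO and had to be higher, so nothing is read from them. These were PLK4, the kinase that starts centriole duplication, at 35.6 against 6.86 CPM (5.19-fold, 3.61 to 7.24), and CEP152, which recruits it, at 24.7 against 9.23. CCDC78, a deuterosome protein, had 0 UMIs on both days, and POC1A had 10 and 1.

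Most partners and relatives of the regulators differed by less than 2-fold or were under the level minimum. None of 4 geminin and E2F partner genes past the minimum at D22 was 2-fold higher or lower, with geminin (GMNN) at 22.8 against 34.6 CPM. E2F4, the other gene of the list, was under the minimum in both groups, at 13.9 against 18.3. All 5 genes of the list summed to 425 against 655 CPM (ratio 0.650, 0.590 to 0.714). Among ciliogenic factors, RFX3 stood at 85.1 against 83.0 CPM, RFX2 at 10.9 against 15.1, RFX4 at 3.96 against 7.63 and FOXN4, on 7 UMIs, at 6.93 against 1.57. On the E2F and MYB list 3 genes passed the level minimum at D22, 1 higher and 1 lower, where 3.57% of all genes were higher and 2.9% lower. MYBL1, a relative of MYB, was the higher one, at 58.4 against 5.57 CPM (10.5-fold, 7.90 to 13.7) in 34 of the 70 cells. It passed the minimum only through the CCNO cells, so it had to be higher. E2F3, an activator of the cell cycle on the same list, was called lower on 12 UMIs, at 11.9 against 24.9 CPM. At D24 RFX2 stood at 29.8 against 12.8 CPM on 3 UMIs, and none of the ciliogenic factors at 20 CPM or more in cells without CCNO was 2-fold higher or lower. All 7 genes of the E2F and MYB list had 0 UMIs in the 10 cells at D24. In cells without CCNO they summed to 24.98 CPM, and the interval of the ratio reached 1.47, which included equality.

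Cell cycle genes were split. Of 12 division genes, 11 passed the level minimum at D22, 8 were 2-fold or more lower and none higher, and all 11 also had 20 CPM in cells without CCNO, where 3.14% of all genes past that minimum were lower. The 3 dividing cells weigh on this list, which summed to 909 CPM in the 70 cells, 436 in the 67 others and 2140 in cells with no CCNO. TOP2A stood at 138 against 399 CPM and MKI67 at 44.5 against 147. CDK1, a mitotic kinase, stood at 113 against 88.9 in the same cells and was found in 32 of the 70. At D24 CDK1 stood at 159 against 4.06 CPM (39.2-fold, 22.1 to 64.8), with MKI67 at 0 UMIs. There the 12 division genes summed to 388 against 117 CPM on 39 UMIs (ratio 3.30, 2.35 to 4.52), and 7 of the 12 had a higher level, beside 35.3% of all genes at 1 CPM or more in cells without CCNO. Of 5 past the level minimum, 4 passed only through the 10 cells, so no count of calls is given for them. CDKN1A stood at 53.4 against 5.31 CPM at D22 (10.1-fold) in 26 cells and at 119 against 5.21 at D24, while CDKN2D stood at 43.5 against 42.0 and 69.6 against 164.

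Of the Notch pathway, 7 genes had at least 20 CPM in D22 cells without CCNO, and 1 of these was higher and 2 lower, where 1.19% of all genes past that minimum were higher and 3.14% lower. At D24 1 of 2 was higher and 0 lower, where 12.1% of all genes past 20 CPM in either group were higher and 20.1% lower. The same 2 genes had at least 20 CPM in cells without CCNO, and of all genes past that minimum 4.33% were higher and 22.4% lower. Of the neuronal precursor genes, 2 of 5 were higher and none lower at D22, all 5 with 20 CPM in cells without CCNO, beside 1.19% of all genes past that minimum higher. At D24 the 3 with at least 20 CPM in cells without CCNO were all higher, beside 4.33% of all genes past that minimum, and the list summed to 915 against 121 CPM (ratio 7.58, 6.11 to 9.31). HES6, a Notch antagonist, stood at 3115 against 1370 CPM at D22 and 378 against 47.2 at D24. HES1, a target of Notch, stood at 37.6 against 2.34 CPM at D22 (16.1-fold, 11.2 to 22.6) from 13 cells. It passed the level minimum only through the CCNO cells, so it had to be higher. At D24 HES1 had 0 UMIs in the 10 cells, where 3 counts amount to 29.8 CPM, against 0.389 CPM in cells without CCNO. The ligand DLL1 stood at 97.9 against 289 at D22. DLL4 had 6 UMIs at D22 and 0 at D24. NEUROD1 stood at 333 against 140 and NEUROG1 at 609 against 494 at D22, and NEUROG1 at 497 against 45.3 at D24 (10.97-fold). SOX2, a progenitor factor, was at 106 against 226 CPM at D22 and 69.6 against 17.1 at D24, on 7 UMIs. At D24 SOX2 passed the level minimum only through the 10 cells, so it had to be higher. NES, a progenitor filament, was at 134 against 256 CPM at D22. Its 9.94 against 39.8 CPM at D24 rested on 1 UMI, where 3 counts amount to 29.8 CPM. The neuronal genes STMN2, TUBB3 and MAPT stood at 1399 against 1289, 26.7 against 28.5 and 6.93 against 14.1 at D22, and STMN2 was at 4483 against 9055 at D24, where 4 of the 6 neuronal genes were called lower, beside 22.4% of all genes at 20 CPM or more in cells without CCNO. Of the choroid plexus and ependyma list only OTX2 was counted (90.03 against 84.1), and TTR and 4 more were at 0. Of the 5 epithelial genes KRT8 passed the level minimum, at 20.8 against 15.6 CPM on 21 UMIs at D22, EPCAM and KRT18 had 2 and 7 UMIs, and all 5 had 0 at D24.

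**Figure D5:**
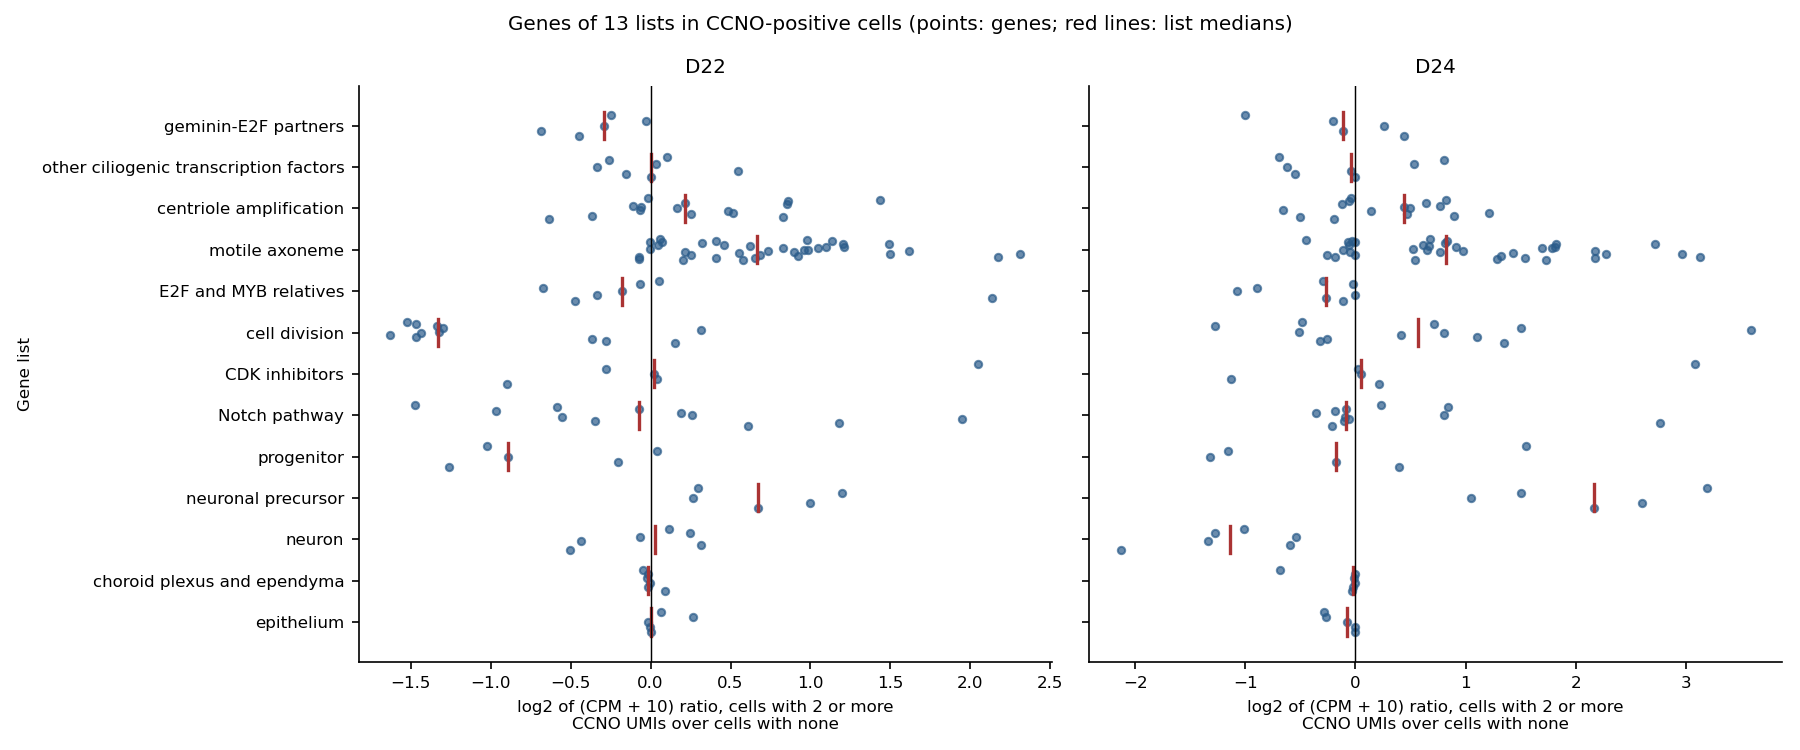
Ratio of (CPM + 10) in cells with 2 or more CCNO UMIs over cells with none (log2 axis), for each gene (point) of 13 lists, with list medians as red lines, at D22 and D24. The motile axoneme medians are 0.67 and 0.82, and the cell division list lies mostly left of 0 at D22.

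Whether GMNC was seen divided the 70 cells. The 25 cells with a GMNC UMI held 1731 CPM of CCNO and the 45 without held 875 (ratio 1.98, 1.76 to 2.22). HES1 was at 88.2 against 7.86 CPM (33 and 5 UMIs), FOXJ1 at 155 against 67.6 and E2F7 at 457 against 313. CFAP126 (139 against 168 CPM) and CDK1 (102 against 119) had intervals that included equality. Division genes stood at 430 against 1191 CPM, and axoneme genes at 625 against 778. The 3 dividing cells were all among the 45 without GMNC. With those 3 left out, a choice made after seeing the data, the other 42 held division genes at 439 CPM, which did not separate from 430 (ratio 0.979, 0.798 to 1.20), axoneme genes at 852 and CCNO at 976.

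The genes most like CCNO, by the lower over D22 and D24 of the ratio of (CPM + 10), included 6 members among the first 72 of all genes, with E2F7, CFAP126, CDC20B and TP73 at ranks 2, 3, 4 and 9, FOXJ1 at 16 and MCIDAS at 72. GMNC, MYB and DEUP1 which had no UMI in the 10 cells at D24, ranked far lower (11606 for GMNC, the highest of the 3). D26 gave no such ratio, as it had no cell with 2 CCNO UMIs. The members were chosen with this contrast in view, so nothing is read from their ranks. At D24 the ratios of MCIDAS, FOXJ1 and TP73 rested on 1, 3 and 4 UMIs in the 10 cells. With members left out the first 15 were LINC02381, SMIM32, PIFO, FAM81B, CCDC146, FAM183A, BHMT, AGPAT2, CDKN1A, C11orf88, C1orf194, SPAG1, PAQR4, CFAP52 and PPIL6. The long noncoding RNA LINC02381 (chr12:54126019-54147485) stood at 202 CPM against 0.518 at D22 and 89.5 against 0.489 at D24. BHMT, a methyltransferase of methionine metabolism, stood at 41.6 against 1.6 CPM at D22, and AGPAT2, an enzyme of phospholipid synthesis, at 59.4 against 6.27. SPAG1, which helps assemble dynein arms, stood at 47.5 against 7.26.

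Of the genes around CCNO, those with more than a few UMIs in the CCNO cells, apart from MCIDAS and CDC20B, differed by less than 2-fold. The annotation holds 20 genes within 250 kb including CCNO, 13 of them in the files and 10 of those not members. DHX29 stood at 96.0 against 77.1 CPM at D22, MTREX at 72.2 against 51.1, and GPX8, which overlaps CDC20B on the other strand, at 17.8 against 23.3. PLPP1 stood at 1.98 against 4.83 on 2 UMIs. The divergent transcript CCNO-DT, 326 bases from CCNO and listed as AC026704.1, had 0 UMIs in the 70 cells and 23 in those without CCNO (0.180 CPM), and since 3 counts in the 70 cells are 2.97 CPM, a level up to that was not detectable. GZMA had 2 UMIs in the 70 cells and 0 in cells without CCNO (the interval of the ratio starts at 23.7). At D24 it had 0 in the 10 cells and 0 in cells without CCNO, and nothing is read from so few counts. ESM1, GZMK and a pair of lncRNAs had at most 2 UMIs in either kind of cell.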

How the data were processed

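Single-cell 3′ RNA libraries (10x Genomics) were read as deposited: the authors' files hold raw UMI counts per gene and barcode, made with Cell Ranger (3.1 per the submitters' processing notes; file headers name 3.1.0 for D22 to D26 and 6.1.2 for the tagged pool) on GRCh38. The study's limits on cells were applied: 1500 UMIs, 1000 genes, a complexity of 0.82 and at most 20% mitochondrial counts at D22 to D26, which left the numbers of cells the study states; 10000 UMIs, 3000 genes and at most 10% mitochondrial counts at D5 and D10, with a complexity of at least 0.78 at D5 and 0.82 to 0.9 at D10; and 30000 UMIs and 5000 genes at D0. At D5 and D10 these limits left 2419, 2815, 2416 and 2168 cells of 2480, 2919, 2778 and 2638 barcodes (D5 dSMADi, D5 XAV939, D10 dSMADi, D10 XAV939), and the study states the barcode numbers. The stated complexity limit would have left 1 D0 barcode, so D0 was kept without it, at 1009 of 1292 barcodes, 1 more than the study states. Tag rows and their sample served only to check that the barcodes of each file shared a top tag. No column of unmapped per-sample values was left (0).

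Counts were summed over cells and given in CPM with exact Poisson intervals; ratios have intervals from the exact binomial split of UMIs and shares have Clopper-Pearson intervals, all at 95% and for counting error only, with 3 counts as the limit of a count of 0. With 1 library per condition no test was made. A gene was called higher or lower at 2-fold or more with at least 20 CPM in 1 group of cells. Since a gene low elsewhere passes this only by being high in the CCNO cells, lists were also counted with a minimum of 20 or 1 CPM in cells without CCNO, added after seeing the data. Doublets were scored against simulated ones (expected 6%, score of 0.25 or more) and kept. The scripts were checked on simulated data. Genes named are the 10 members, the 15 most like CCNO, the genes within 250 kb of it, and the largest and smallest ratio at D24 in each list, with further list genes named after their values were seen. The members and lists were chosen with earlier results of these data known. Python 3.11.15, numpy 2.4.6, scipy 1.17.1, pandas 2.3.3 and scikit-learn 1.9.0 were used, with GENCODE 44 gene models and RefSeq promoter tables.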

Additional observations from a re-analysis of the deposited data

How the results depend on the processing

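Thinning to 1500 UMIs was run with cells of 1 or more CCNO UMIs as the class, so 2 choices changed together in every value called thinned here. The share of cells in the CCNO class at D22 was 0.735% and became 2.16% with 1 or more CCNO UMIs, 0.567% with 3 or more and 0.567% thinned. At D24 it moved from 0.110% to 0.813% with 1 or more UMIs, 0.0549% with 3 or more and 0.187% thinned, and at D26 from 0 to 0.760% with 1 or more and 0.109% thinned. The summed ratio of the other 9 genes at D22 was 51.6 and became 19.4 (1 or more), 65.0 (3 or more), 60.5 (thinned) and 60.9 (deepest 5% of cells removed). At D24 it was 81.1 and became 17.1, 123 (3 or more) and 40.8 (thinned). The share with at least 3 of the others at D22 was 75.7% and became 28.6%, 90.7%, 11.1% (thinned), and 62.9% with CDC20B and MCIDAS left out, a count added after seeing the data. At D24 it was 40% and became 5.41% and 5.88% (thinned), and 20% with CDC20B and MCIDAS left out. Genes called higher numbered 211 at D22 and 38 (1 or more), 1128 (thinned), 58 (fold of 4) and 88 (50 CPM). At D24 they numbered 695 and 1075 (stricter filter on cells), 62, 1849 (thinned), 1058 (deepest cells removed), 218 (fold of 4) and 264 (50 CPM). The cause of these shifts was not tested. The direction of 5 ratios of single members reversed: thinned, DEUP1 at D22 went from 3.41 to 0, and at D24 MCIDAS from 691 to 0, FOXJ1 from 34.0 to 0 and TP73 from 44.6 to 0, each with no UMI left in the class, and MYB at D24 went from 0 to 1.21 with 1 or more CCNO UMIs. Of 124 such ratios under the alternatives, 95 moved by less than their interval and 24 by more without reversing, and the 80 levels by library stayed within theirs with no filter on cells. No paired analysis was possible because each condition has 1 library. Depth limits MCIDAS (12 UMIs at D22), DEUP1 in the CCNO cells and everything read from the 10 cells at D24.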
